A study of Mus musculus with 10 samples.

Results

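Monocytes are specified and sorted into subsets by a small group of transcription factors, and 9 of their genes are described here: Spi1, Cebpa, Cebpb, Irf8, Klf4, Klf2, Runx1, Zeb2 and Bcl6. They were chosen by name as factors of monocyte commitment and subset choice, and each was matched by its symbol to an Ensembl identifier. All 9 were found among the 48526 genes of the count table, and all 9 passed the filter on low counts. The libraries come from mouse aorta cells labelled as endothelial cells and isolated by fluorescence-activated cell sorting. The 5 stressed libraries are from mice exposed to acute mental stress for 3 h on each of 3 days in a row, and the 5 non-stressed libraries from mice without it. Both groups carry the same strain label, ApoE, which names the apolipoprotein E gene and gives no allele. The labels do not state age, or whether a library came from 1 animal or a pool, so the p-values below measure the spread between these samples, which may be technical.

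In blood formation, PU.1 (the protein of Spi1) and C/EBP alpha (Cebpa) turn progenitors toward the myeloid lineage, and RUNX1 acts before them on the same regulatory regions. IRF8 then favours monocytes and dendritic cells over granulocytes, and KLF4 acts downstream of it. C/EBP beta (Cebpb) maintains patrolling monocytes in the mouse. KLF2 restrains inflammatory activation of monocytes and is also a flow-induced factor of endothelium. ZEB2 and BCL6 are repressors: ZEB2 guards myeloid and dendritic cell identity, and BCL6 silences inflammatory genes in macrophages and directs germinal centre B cells.

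Total counts ran from 18020220 to 38237346 per library, with 23721725 ± 4636084 (SD, n = 5) in stressed and 30415732 ± 6097379 (SD, n = 5) in non-stressed libraries (two-sided exact permutation test, p = 0.0952). The marker genes went against the label of the sort. The 12 monocyte and macrophage markers summed to 31140 to 38728 CPM (counts per 1000000 counts of a library) in stressed and 26109 to 39143 CPM in non-stressed libraries. The 15 endothelial markers summed to 107 to 161 CPM in stressed and 103 to 187 CPM in non-stressed libraries. Of these 15, 8 stayed under 1 CPM in every library and 3 of those (Tek, Cldn5 and Emcn) had no reads. The summed B cell markers stood at 369 to 682 CPM in stressed and 494 to 1041 CPM in non-stressed libraries. The levels below are those of libraries rich in leukocyte transcripts, and in such bulk samples fewer cells of a type and less RNA per cell cannot be told apart.

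All of these factors were well expressed in both groups, with at least 1710 reads of each in every library. Levels of different genes were compared as CPM per kilobase of exon. Klf2 was the most abundant at 359 ± 38.9 CPM per kilobase (SD, n = 10), followed by Cebpb at 343 ± 56.7. The order of these neighbours was not fixed, since Klf2 exceeded Cebpb in 6 of 10 libraries. Spi1 came next at 252 ± 12.9 CPM per kilobase and lay below Cebpb in all 10 libraries. Cebpa averaged 136 ± 35.5 and Klf4 114 ± 8.61 CPM per kilobase, with Cebpa ahead in 7 of 10 libraries. Irf8 followed at 57.9 ± 8.03, Bcl6 at 30.0 ± 4.21 and Zeb2 at 27.0 ± 3.31 CPM per kilobase, and Bcl6 exceeded Zeb2 in 7 of 10 libraries. Runx1 was the lowest at 8.45 ± 0.730 CPM per kilobase, under Zeb2 in all 10. The exon length joins every annotated isoform, which lowers the values of genes with many of them. With the length of the longest coding transcript instead, Irf8 stood at 143 CPM per kilobase and passed Cebpa and Klf4, and Zeb2 at 59.1 passed Bcl6 at 57.0, whereas Klf2 stayed first and Runx1 last by their means. Spi1 then stood at 334 CPM per kilobase, and Cebpb exceeded it in 5 of 10 libraries.

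Within their families the factors of the monocyte lineage often led. Spi1 held 96.1% of the summed per-kilobase level of the PU.1 family, far above its relatives Spib and Spic at 7.91 and 2.32 CPM per kilobase. Zeb2 held 95.2% of the ZEB and SNAI list, where Zeb1 stood at 1.15 CPM per kilobase and Snai2 had no reads. Cebpb and Cebpa ranked first and second of 7 C/EBP genes, and Cebpe, the C/EBP factor of granulocyte maturation, was the lowest at 2.38 CPM per kilobase. Klf2 and Klf4 ranked 1 and 3 of 17 KLF genes, with Klf6 between them at 128 CPM per kilobase. Irf8 was not the leading interferon regulatory factor: Irf5 at 233 and Irf7 at 156 CPM per kilobase stood above it, and Irf1 at 58.1 beside it. Among the core-binding factors, Runx1 lay below its partner gene Cbfb, at 44.0 CPM per kilobase, and below Runx3, at 12.3. In CPM without length, Runx1 (89.2 to 118 over the 10 libraries) lay above Runx3 (50.8 to 77.6). With the longest coding transcript as length, Runx1 stood at 17.3 and Irf8 at 143 CPM per kilobase. Their relatives were not recomputed, so places within a family can depend on the length. Ncor1, a corepressor gene of BCL6, averaged 24.8 CPM per kilobase, beside 30.0 for Bcl6 itself, while its relative Bcl6b had 23 reads in all.

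**Figure D1:**
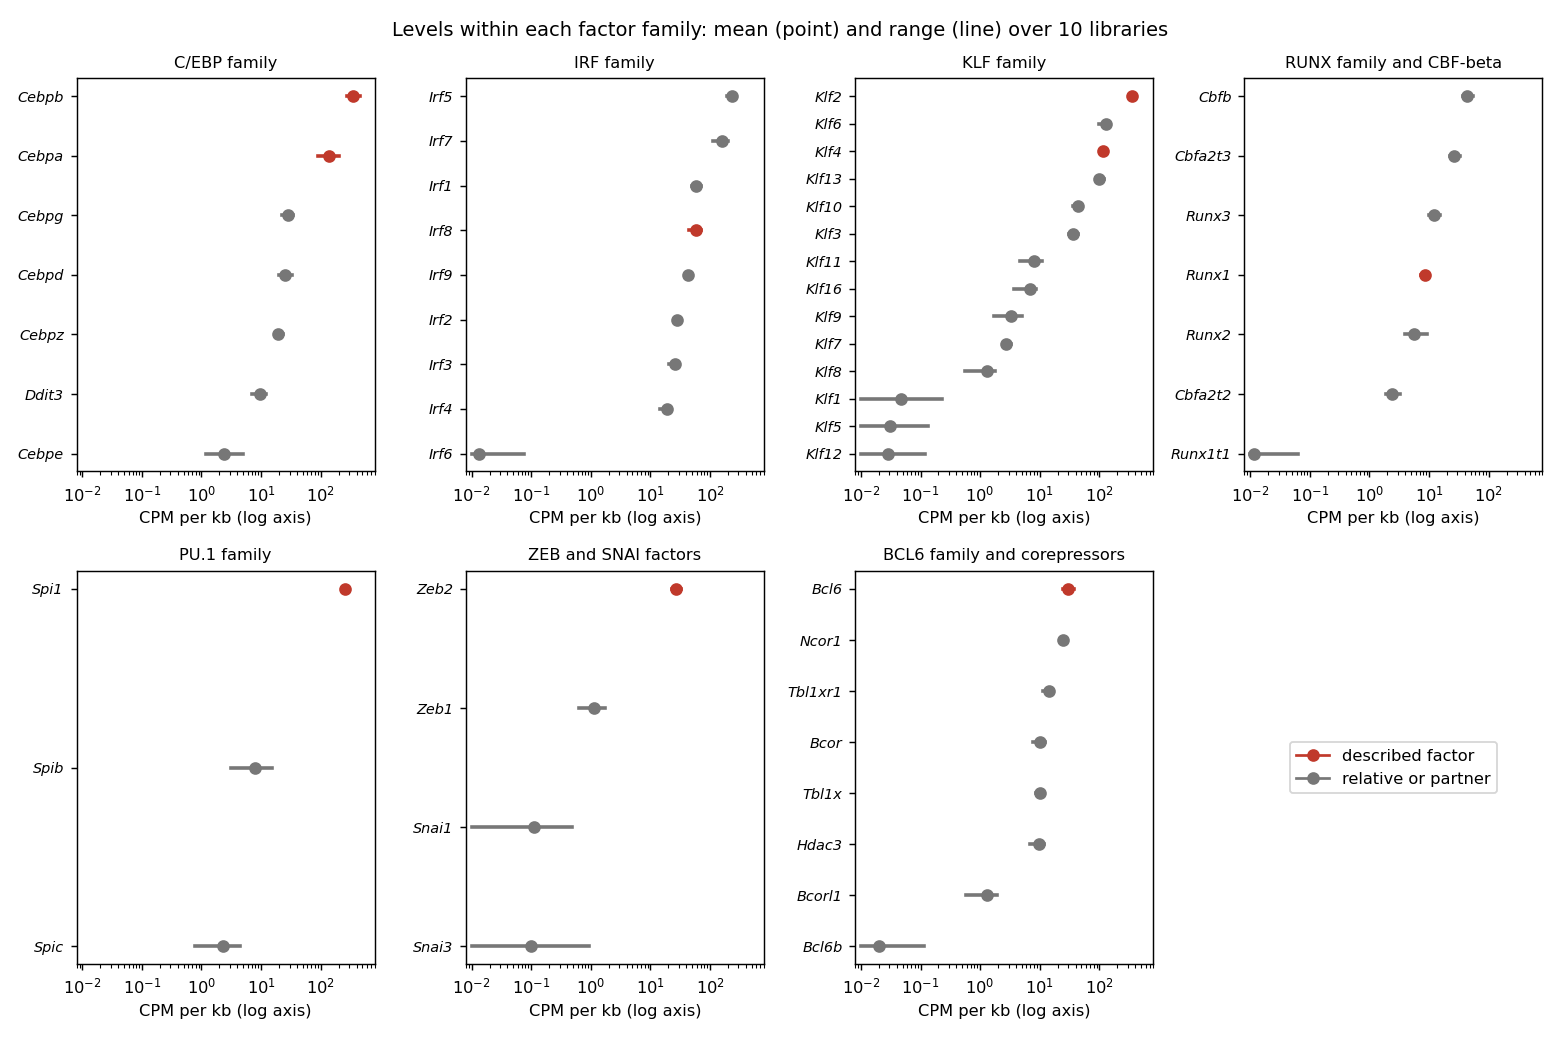
Mean (point) and lowest to highest value (line) over the 10 libraries, in CPM per kilobase of exon on a log axis, for most genes with reads in each factor family, with the factors described here in red and values under 0.01 drawn at 0.01; not every gene of the BCL6 list is drawn, so its top row is not a rank. The exon length joins every annotated isoform, and places within a family can depend on it. Spi1 and Zeb2 stand far above their relatives, whereas Irf8 at 57.9 and Runx1 at 8.45 CPM per kilobase do not lead theirs.

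No difference between stressed and non-stressed libraries passed the test for any of the 9 factors. In the edgeR quasi-likelihood fit of 13334 genes, 0 of 9 passed an adjusted p of 0.05, and 0 of 9 had an unadjusted p under 0.05. DESeq2 and limma-voom also called 0 of 9. Few genes passed at all: 1 of 13334, or 0.0075% (the chitinase-like gene Chil3), and 5.53% had an unadjusted p under 0.05. The groups overlapped for each of the 9, while 1.11% of all genes tested had groups that did not. Estimated fold changes were small, with 5 above and 4 below 0 on the log2 scale and a median of 0.05, against a median of 0.004 over all genes tested.

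**Figure D2:**
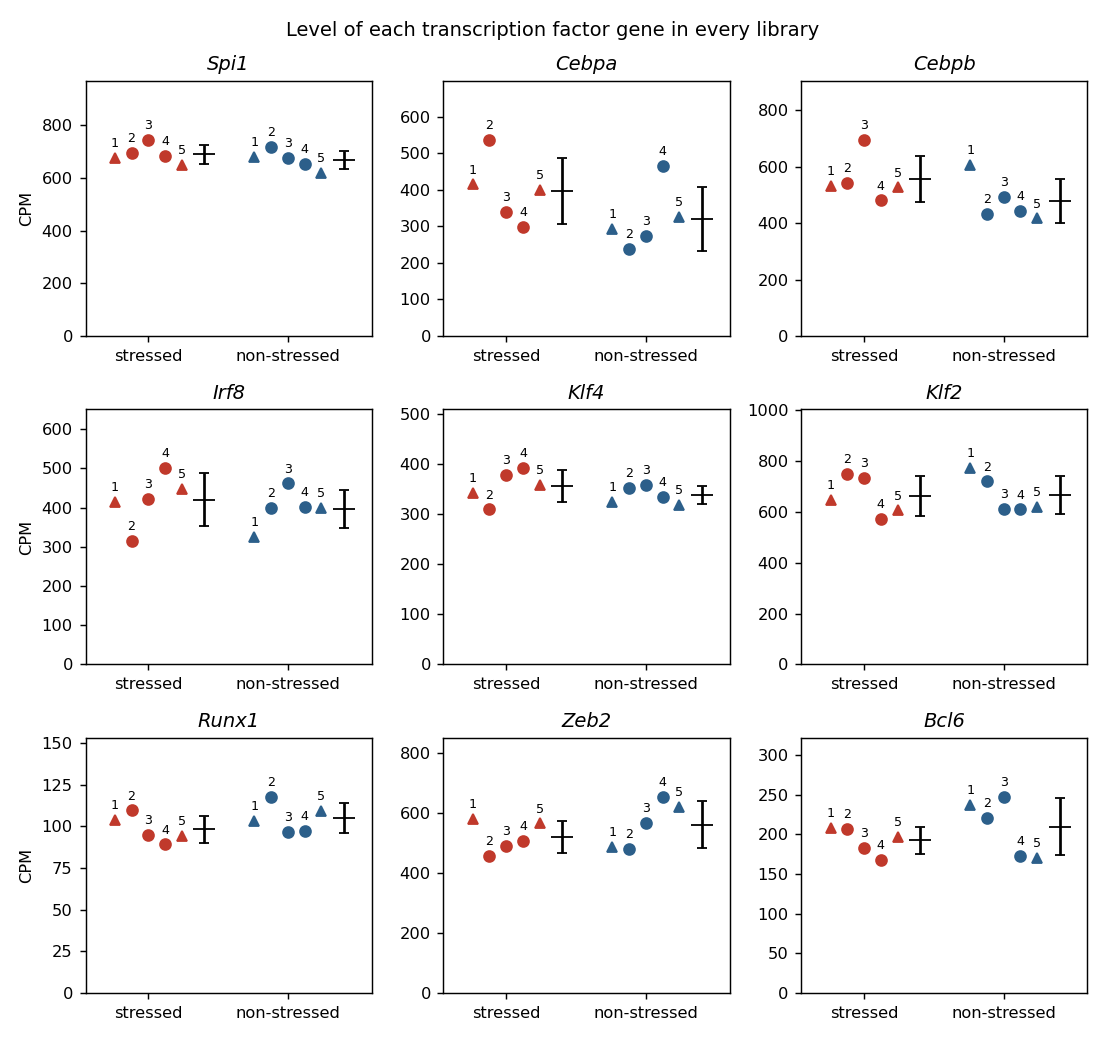
CPM of each factor (vertical axes from 0) in the 5 stressed (red) and 5 non-stressed (blue) libraries, numbered by replicate, with the mean and SD in black. Circles are libraries in which Ddx3y, on the Y chromosome, exceeded 100 reads and triangles the others; the groups overlap in every panel.

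Spi1 was the steadiest of the factors. It was counted at 675, 694, 744, 682 and 651 CPM in stressed replicates 1 to 5, against 678, 716, 675, 653 and 620 CPM in the non-stressed ones. The groups overlapped, with stressed replicate 3 at the top and non-stressed replicate 5 at the bottom, 1.20-fold apart. The log2 fold change was 0.05 (SE 0.06, edgeR adjusted p = 0.968), and its 95% interval ran from a fold of 0.946 to 1.13. It ranged from 0.02 without non-stressed replicate 5 to 0.07 without non-stressed replicate 2. The SD of its log2 level within groups was 0.07, and 3.63% of genes at 5 log2 CPM or more had a smaller one, where the median was 0.16. The gene lies on chromosome 2 from 91082390 to 91115756, plus strand, in mm10.

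Cebpa was the most variable. Stressed replicates 1 to 5 held 415, 537, 339, 298 and 399 CPM, and the non-stressed ones 294, 237, 275, 465 and 326 CPM. Non-stressed replicate 4 stood well above the rest of its group, and stressed replicate 2 alone exceeded it. The log2 fold change was 0.32 (SE 0.17, edgeR adjusted p = 0.915), with a 95% interval from a fold of 0.965 to 1.61. Those 2 libraries decided its size. Without non-stressed replicate 4 the estimate was 0.50 (unadjusted p = 0.00404, edgeR adjusted p = 0.829). Without stressed replicate 2 the estimate was 0.18 (edgeR adjusted p = 0.947). The SD within groups was 0.35 on the log2 scale, above that of 95.8% of genes at 5 log2 CPM or more. The gene has a single exon (chromosome 7 from 35119293 to 35121928, plus strand), and 51 of its bases are shared with the antisense gene Gm45091.

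Cebpb had the smallest p of the 9. Its levels were 531, 542, 695, 480 and 526 CPM in stressed replicates 1 to 5, against 606, 431, 493, 443 and 416 CPM in non-stressed ones. Stressed replicate 3 was the highest of all, and non-stressed replicate 1 lay above the other 4 stressed libraries. The estimate was 0.22 on the log2 scale (SE 0.11, unadjusted p = 0.0679, edgeR adjusted p = 0.895), with an interval from a fold of 0.987 to 1.37. It was 0.31 without non-stressed replicate 1 (unadjusted p = 0.00684, edgeR adjusted p = 0.756) and 0.13 without stressed replicate 3, which also held 5528 CPM of erythroid markers, against 1172 to 3933 CPM in the other stressed libraries and 1333 to 2781 CPM in the non-stressed ones. Without stressed replicate 3 and non-stressed replicate 2, the libraries with the most erythroid and the most lymphoid marker counts, it was 0.09 (edgeR adjusted p = 0.999). Cebpb (chromosome 2 from 167688915 to 167690418, plus strand) shares 312 of its 1504 exon bases with Tmem189 on the other strand, which had 14221 reads in all against 136412 of Cebpb. The labels do not state whether reads were counted by strand, so how reads from the shared bases were assigned is not known. Either count may be affected.

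Irf8 (chromosome 8 from 120736358 to 120756694, plus strand) was counted at 415, 315, 421, 500 and 447 CPM in stressed replicates 1 to 5, and at 326, 399, 462, 401 and 400 CPM in non-stressed ones. Both the highest and the lowest library were stressed, replicates 4 and 2. Its log2 fold change was 0.08 (SE 0.11, edgeR adjusted p = 0.971), with an interval from a fold of 0.896 to 1.25. It was 0.01 without stressed replicate 4 and 0.16 without stressed replicate 2.

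Klf4, the factor downstream of IRF8 (chromosome 4 from 55527143 to 55532466, minus strand), had the same extreme libraries. It stood at 343, 309, 378, 391 and 357 CPM in stressed replicates 1 to 5, against 324, 352, 359, 333 and 318 CPM in non-stressed ones. The groups overlapped, and the fold change was 0.08 on the log2 scale (SE 0.07, edgeR adjusted p = 0.955), with an interval from a fold of 0.949 to 1.18. It was 0.04 without stressed replicate 4 and 0.12 without stressed replicate 2. Its relative Klf2 (chromosome 8 from 72319033 to 72321656, plus strand) had nearly equal means in both groups. Stressed replicates 1 to 5 held 647, 749, 733, 572 and 605 CPM of Klf2, and the non-stressed ones 770, 719, 611, 609 and 620 CPM. The group means were 661 ± 77.8 CPM in stressed and 666 ± 74.4 CPM in non-stressed libraries (SD, n = 5 each). Stressed replicates 4 and 5 lay below all non-stressed libraries and non-stressed replicate 1 above all stressed ones. The log2 fold change was -0.005 (SE 0.09, edgeR adjusted p = 0.998), with an interval from a fold of 0.872 to 1.14, and its sign turned with the library left out.

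The remaining factors lay slightly lower in the stressed libraries, none past the threshold. Runx1 (chromosome 16 from 92601466 to 92826149, minus strand) stood at 104, 110, 94.9, 89.2 and 94.3 CPM in stressed replicates 1 to 5, and at 103, 118, 96.5, 97.1 and 109 CPM in non-stressed ones. Stressed replicates 3, 4 and 5 lay below all non-stressed libraries, by little. Its log2 fold change was -0.09 (SE 0.09, edgeR adjusted p = 0.959), with an interval from a fold of 0.829 to 1.07. It was -0.14 without stressed replicate 2, -0.06 without stressed replicate 4 and -0.05 without non-stressed replicate 2.

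Zeb2 (chromosome 2 from 44983632 to 45117395, minus strand) held 580, 455, 488, 506 and 564 CPM in stressed replicates 1 to 5, against 485, 480, 565, 653 and 618 CPM in non-stressed ones. Non-stressed replicates 4 and 5 lay above every stressed library and stressed replicate 2 below every non-stressed one. The log2 fold change was -0.11 (SE 0.10, edgeR adjusted p = 0.955), with an interval from a fold of 0.803 to 1.07, and -0.04 without non-stressed replicate 4. Zeb2 shares 653 exon bases with its antisense gene Zeb2os, which had 2691 reads against 146138 of Zeb2. Bcl6 (chromosome 16 from 23965052 to 23988852, minus strand) stood at 208, 207, 182, 167 and 196 CPM in stressed replicates 1 to 5, and at 237, 221, 247, 173 and 170 CPM in non-stressed ones. The non-stressed libraries fell apart into 3 above every stressed one and 2 near the lowest stressed one. Its log2 fold change was -0.12 (SE 0.11, edgeR adjusted p = 0.954), with an interval from a fold of 0.783 to 1.08. It was -0.06 without non-stressed replicate 3, -0.08 without stressed replicate 4, -0.18 without non-stressed replicate 4 and -0.19 without non-stressed replicate 5.

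**Figure D3:**
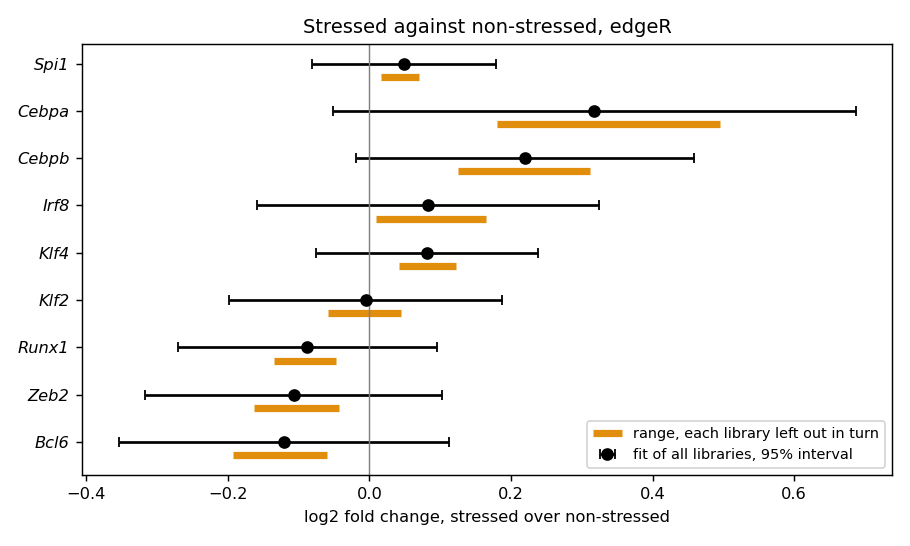
Log2 fold change of each factor, stressed over non-stressed, from the edgeR fit (black point, line for the 95% interval), and the range when each library was left out in turn (orange). All 9 intervals include 0, and the range of Klf2, from -0.06 to 0.04, lies on both sides of it.

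Both groups held libraries of either sex. Ddx3y exceeded 100 reads in 3 stressed and 3 non-stressed libraries, replicates 2, 3 and 4 of each group, and replicates 1 and 5 of each held Xist. In the 6 libraries with Y-linked reads the difference of mean log2 CPM, stressed minus non-stressed, was 0.31 for Cebpb and 0.28 for Cebpa, and in the other 4 it was 0.09 and 0.41. Spi1 (0.05 and 0.04), Klf4 (0.04 and 0.14) and Runx1 (-0.08 and -0.09) kept their sign in both sets. Irf8 (-0.05 and 0.27), Klf2 (0.08 and -0.13), Zeb2 (-0.22 and 0.08) and Bcl6 (-0.20 and 0.02) did not. The test of that difference, an interaction of stress with Y-linked reads in edgeR, called 0 of 13334 genes (574 at an unadjusted p under 0.05), and the unadjusted p of the 9 factors ran from 0.153 for Zeb2 to 0.976 for Runx1.

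The relatives and partners of the factors gave 0 calls in edgeR, DESeq2 or limma-voom. For comparison with the counts of each list below, 6784 of all 13334 genes tested were above 0 and 6550 below. In the C/EBP family 6 of 7 tested genes were above 0, with a median log2 fold change of 0.22. Cebpd, a C/EBP factor induced in acute inflammation, had the smallest p among them, at 0.28 (SE 0.10, unadjusted p = 0.0153, edgeR adjusted p = 0.874). It averaged 105 ± 12.2 CPM in stressed and 86.6 ± 10.1 CPM in non-stressed libraries (SD, n = 5 each). Cebpg, at 0.18 (SE 0.11), and Cebpe, at 0.82 (SE 0.44) and low levels, had the same sign. Neutrophils express Cebpe and Cebpd too, and 8 of 10 tested neutrophil markers were above 0 (median 0.33), 1 of them at an unadjusted p under 0.05. The summed neutrophil markers had a median of 1000 CPM in stressed and 1126 CPM in non-stressed libraries. The part of neutrophils was not tested. All 6 tested genes of the RUNX list were below 0, with a median of -0.16, while 6550 of all 13334 genes tested were. Cbfb, the shared partner of the RUNX proteins, had -0.19 (SE 0.08, unadjusted p = 0.0268, edgeR adjusted p = 0.874), and Runx2, best known from bone, -0.45 (SE 0.18, unadjusted p = 0.0258). Runx2 stood at 34.7 to 80.9 CPM over the 10 libraries, and its value was -0.29 without non-stressed replicate 1.

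In the other families, Zeb1, the relative of Zeb2, had the smallest p, at -0.59 (SE 0.21, unadjusted p = 0.0134, edgeR adjusted p = 0.836). It averaged 9.44 ± 2.24 CPM in stressed and 14.2 ± 2.93 CPM in non-stressed libraries (SD, n = 5 each). T and NK cells also express Zeb1, and their summed markers ran from 16.0 to 109 CPM in stressed and from 24.6 to 150 CPM in non-stressed libraries; their part in its value was not tested. Of the KLF genes, 9 of 11 tested were above 0 (median 0.08), among them Klf9, a glucocorticoid-induced factor, at 0.34 (SE 0.26), Klf6 at 0.13 (SE 0.11) and Klf13 at 0.09 (SE 0.08). Of the IRF genes 3 of 8 were above 0 (median -0.02). Irf7, an interferon-induced member, had -0.27 (SE 0.15) and Irf4, a partner of PU.1 in B cells and dendritic cells, -0.22 (SE 0.11). In the BCL6 list 7 of 8 genes were below 0 (median -0.08), with Bcorl1 at -0.48 (SE 0.24) and Hdac3, the deacetylase of the corepressor complex, at 0.20 (SE 0.13). Of 42 other myeloid and dendritic cell factors 20 were above 0 (median -0.03) and 5 had an unadjusted p under 0.05. Nfil3 had 0.44 (SE 0.18) and Stat5a -0.19 (SE 0.08), and Egr1 had 3.37 (SE 1.08), but 0.03 without stressed replicate 3.

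Genes that the factors are known to control gave 0 calls in the edgeR fit described above, DESeq2 or limma-voom. Of 29 tested targets of PU.1 and C/EBP factors in monocytes, 15 were above 0 (median 0.01), and 3 had an unadjusted p under 0.05. These 3 were the oxidase subunit gene Ncf4 at 0.25 (SE 0.08), the endotoxin co-receptor gene Cd14 at 0.71 (SE 0.25) and the Fc receptor gene Fcgr3 at 0.23 (SE 0.09). The IRF8 target list had 12 of 17 genes below 0 (median -0.10), 3 of them at an unadjusted p under 0.05. Among them were the invariant chain gene Cd74 at -1.03 (SE 0.27, edgeR adjusted p = 0.684, and 0.0345 without the low-count filter) and Ciita, the class II transactivator, at -0.78 (SE 0.28). Ciita and Cd74 are also expressed by B cells, whose 10 tested markers were all below 0 (median -0.32), 0 of them at an unadjusted p under 0.05. The summed B cell markers had a median of 677 CPM in stressed and 597 CPM in non-stressed libraries. Dendritic cells express both genes too, and 8 of 10 of their markers were below 0. Their sum had a median of 364 CPM in stressed and 383 CPM in non-stressed libraries. The part of these cells was not tested. Irf8 itself stood at 0.08. The BCL6-repressed list had 9 of 16 genes below 0 (median -0.06), with the plasma cell factor gene Prdm1 at -0.46 (SE 0.22) and the costimulatory gene Cd80 at 0.47 (SE 0.25). The KLF2 and KLF4 target list had 7 of 14 above 0 (median -0.06). The urokinase receptor gene Plaur at 0.26 (SE 0.12) and the mannose receptor gene Mrc1 at -1.04 (SE 0.35) both had an unadjusted p under 0.05. Mrc1 was called in edgeR with a replicate block.

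In the lists of monocyte subsets 1 gene passed the test in edgeR. The classical list had 10 of 15 tested genes above 0 (median 0.26), 6 at an unadjusted p under 0.05 and Chil3, which alone was past the threshold (log2 fold change 1.64, SE 0.11, edgeR adjusted p = 4.14e-06). The dendritic-cell-like list had 13 of 15 below 0 (median -0.63). It had 8 at an unadjusted p under 0.05, 7 of them below 0, among which was the lectin gene Cd209a at -0.63 (SE 0.18). Over all 13334 genes tested, 6550 were below 0 and 5.53% had an unadjusted p under 0.05. The non-classical list had 10 of 15 below 0 (median -0.10), with the scavenger receptor gene Cd36 at -0.94 (SE 0.38). The part of B cells and dendritic cells, whose markers are given above, in the dendritic-cell-like list was not tested. Neither of these 2 lists gave a call in the edgeR fit described above, DESeq2 or limma-voom, Cd74 being called in edgeR without the low-count filter, and no test compared the subset lists with the factors.

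No pair of factors varied together past the adjusted threshold, although 2 pairs came close to it for Pearson's r. Of 36 pairs, 5 had an unadjusted permutation p under 0.05 for Pearson's r of log2(CPM + 1) over 10 libraries (100000 resamples), and 0 passed after adjustment over the pairs. Irf8 and Klf4 had the highest value, r = 0.83 (permutation p = 0.00279, adjusted p = 0.0502) and Spearman's rho = 0.87 (permutation p = 0.00194, adjusted p = 0.0625). Without the 2 libraries farthest from the median of Irf8, r was 0.75, and without the 2 farthest from the median of Klf4 it was 0.63. Irf8 and Klf2 had r = -0.80 (permutation p = 0.00241, adjusted p = 0.0502) and rho = -0.77 (permutation p = 0.0122, adjusted p = 0.110), and r = -0.58 without 2 libraries. Taking deviations from the group means left these values at 0.83 and -0.81, and in the 6 libraries with Y-linked reads they were 0.90 and -0.75; the 4 other libraries are too few for a correlation. Spi1 and Zeb2 had r = -0.76 (permutation p = 0.00941, adjusted p = 0.113) and rho = -0.79 (permutation p = 0.00866, adjusted p = 0.104), and r = -0.78 without 2 libraries. Irf8 and Runx1 had r = -0.63 (permutation p = 0.0505, adjusted p = 0.303). Their rho of -0.84 (permutation p = 0.00347, adjusted p = 0.0625) came closer to the threshold than that of Irf8 and Klf2.

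The extremes of these relations lay in few libraries. Stressed replicate 2 and non-stressed replicate 1 had the lowest Irf8, at 315 and 326 CPM, and the highest Klf2 of their groups, at 749 and 770 CPM. The same 2 libraries held the most neutrophil marker counts, 1941 and 1940 CPM, against 762 to 1569 CPM in the other 8. These sums include Csf3r, which is also on the list of PU.1 and C/EBP targets in monocytes. Csf3r alone held 620 to 969 CPM in stressed and 578 to 804 CPM in non-stressed libraries. Stressed replicate 4, with the highest Irf8 and Klf4 and the lowest Klf2, held the lowest T and NK cell sum, 16.0 CPM. The part of these cells in the correlations was not tested.

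**Figure D4:**
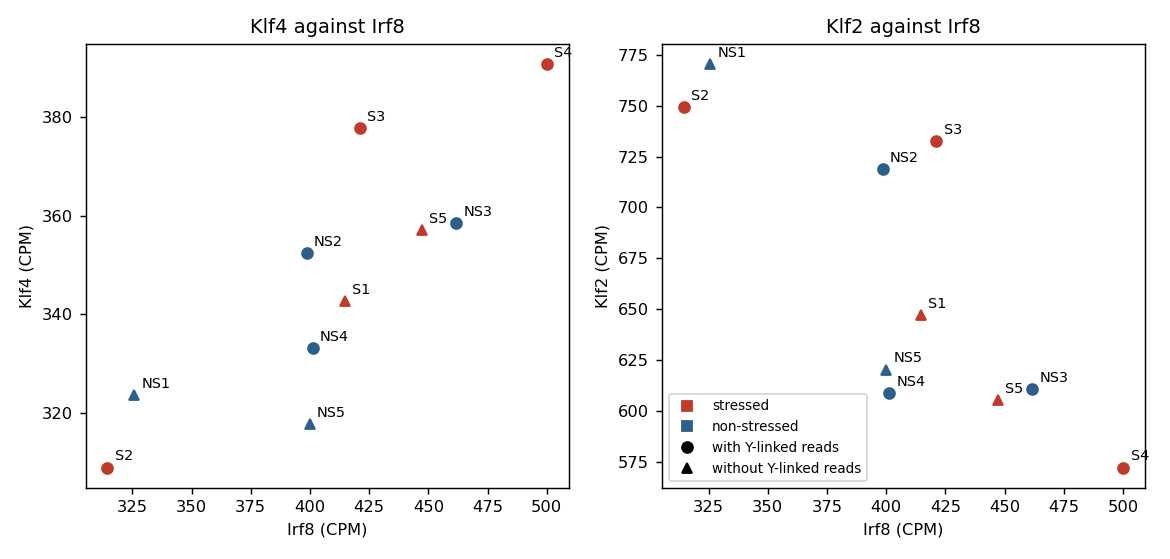
Klf4 (left) and Klf2 (right) against Irf8, in CPM, with 1 point for each stressed (S, red) and non-stressed (NS, blue) library and its replicate number. Over the libraries r is 0.83 for Klf4 and -0.80 for Klf2, neither past adjustment, and stressed replicates 2 and 4 mark opposite ends.

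**Figure D5:**
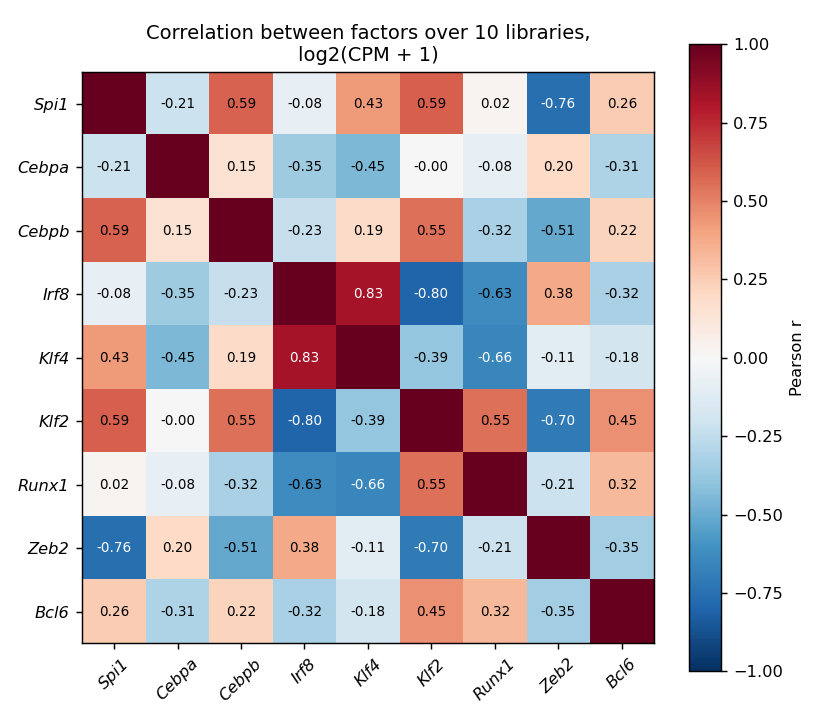
Pearson's r of log2(CPM + 1) over 10 libraries for each pair of factors, red for positive and blue for negative. Irf8 with Klf4 at 0.83 is the highest of the 36 and Irf8 with Klf2 at -0.80 the lowest.

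The sequences before the start sites of Irf8, Klf4 and Klf2 are shown for their pairs. Irf8 with Klf4 and with Klf2 had the smallest permutation p of Pearson's r. The sequence before an internal Bcl6 start is shown because matches to the motif of its own protein lie in it. All sequences are from RefSeq windows of GRCm38.p6, printed 5′ to 3′ on the gene's strand. They cover 250 bases up to the start, or for Klf2 221 bases up to an annotated exon. Their positions are chr8:120736108-120736357 (plus) for Irf8, chr4:55532476-55532725 (minus) for Klf4, chr8:72318812-72319032 (plus) for Klf2 and chr16:23981284-23981533 (minus) for Bcl6. Capitals mark matches to the motifs described next, and the Klf4 sequence has none.
Irf8: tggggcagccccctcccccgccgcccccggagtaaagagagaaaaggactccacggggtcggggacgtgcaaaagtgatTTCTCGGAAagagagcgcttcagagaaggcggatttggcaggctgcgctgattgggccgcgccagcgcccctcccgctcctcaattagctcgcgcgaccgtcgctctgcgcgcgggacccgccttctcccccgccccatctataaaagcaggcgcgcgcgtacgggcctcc
Klf4: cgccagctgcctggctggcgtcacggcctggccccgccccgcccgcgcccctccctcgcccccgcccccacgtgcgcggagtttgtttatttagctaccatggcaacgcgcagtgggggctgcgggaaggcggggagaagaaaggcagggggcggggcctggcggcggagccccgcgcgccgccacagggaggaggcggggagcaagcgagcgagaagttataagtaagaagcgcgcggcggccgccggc
Klf2: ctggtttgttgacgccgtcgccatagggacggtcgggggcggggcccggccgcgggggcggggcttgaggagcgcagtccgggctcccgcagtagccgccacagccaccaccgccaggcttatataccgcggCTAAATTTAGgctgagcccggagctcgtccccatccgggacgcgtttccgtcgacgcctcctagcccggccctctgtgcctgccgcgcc
Bcl6: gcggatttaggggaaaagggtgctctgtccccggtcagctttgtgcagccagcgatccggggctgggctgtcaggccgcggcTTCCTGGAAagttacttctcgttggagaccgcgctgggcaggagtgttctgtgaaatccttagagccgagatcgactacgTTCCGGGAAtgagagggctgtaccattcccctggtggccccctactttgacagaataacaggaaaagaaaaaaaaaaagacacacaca

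The set of RefSeq windows used held 8 of the 9 factors and lacked Spi1. It gave 14 windows of 250 bases before to 50 after a start. The motifs of 8 kinds of factor were searched on both strands and a MEF2 motif was added after the sequences had been read. The BCL6 motif TTCCNNGAA, which STAT factors bind as well, was in 4.81% of all 32851 windows. Among the factors it matched at 168 and 88 bases before the internal Bcl6 start (first base of the match) and, on the other strand, at 171 bases before the Irf8 start. The C/EBP motif TTGCNNAA, in 10.8% of all windows, matched in a Zeb2 window, and the RUNX motif TGTGGT, in 16.8%, in a Runx1 window. The ZEB motif CAGGTG, in 20.2%, matched in windows of Irf8 and Runx1. The PU.1 motif GAGGAAGT, the KLF motif CCACACCC, the IRF motif and the glucocorticoid response element, in 3.20%, 3.56%, 3.44% and 0.475% of all windows, had no match in the 14. The MEF2 motif, in 3.69%, matched in the Klf2 window alone. The 250 bases before the start were rich in G and C, 67.2% for Irf8, 74.0% for Klf4 and 71.2% for Klf2, against a median of 52.4% over all windows. A match says only that these letters stand there.

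For each factor the gene with the most similar profile over the 10 libraries was taken from 5374 other genes at 5 log2 CPM or more. Being the highest of so many, these correlations carry no p. Klf2 followed Il4ra, the interleukin-4 receptor gene, at r = 0.97, and Spi1 followed Cd68, a lysosomal glycoprotein gene of macrophages, at r = 0.95. Zeb2 was most like Rpf1 (r = 0.95) and Bcl6 most like Mfsd1 (r = 0.95). Klf4 was most like Bax, a gene of programmed cell death, and Irf8 like Hsf1, the heat shock factor gene, both at r = 0.90. Runx1 followed Ubl3 and Cebpb followed Ppp2cb, each at r = 0.89. Cebpa had the weakest best match, Nlrc4, an inflammasome gene, at r = 0.84.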

How the data were processed

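RNA of the 10 libraries was sequenced, and the deposited values are whole read counts per Ensembl gene, made with Trimmomatic, STAR and featureCounts on mm10 per the submitters' processing notes. Those notes, as used here, give no tool versions, annotation or strand setting. Of 48526 identifiers 48058 matched a symbol. Sample titles gave the groups and replicate numbers. Coordinates and exon lengths are from a GENCODE annotation of that build.

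The quasi-likelihood F test of edgeR 4.0.16 (R 4.3.3) compared the groups after filterByExpr (minimum count 10) with TMM factors, and Benjamini-Hochberg adjustment ran over 13334 genes, which held 99.88% of counts. Standard errors are the log2 fold change over the square root of F. CPM of single libraries use their totals, and a count of 0 allows up to 0.0785 to 0.166 CPM (3 counts, counting error only). The fit was tested on simulated data, where it missed many of the genes that had been changed. Within groups, libraries differed beyond sampling noise (chi-square 21.1 to 64.8 per degree of freedom), so no library was a repeat sequencing of another in its group. Pairs across the groups were not compared, and separate libraries of the same animal or pool would not show in this comparison. Permutation tests used scipy 1.17.1.

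The factors and gene lists were chosen with earlier results of these data known. Named were the 9 factors, genes of their families, up to 4 genes of smallest p in each other list and the most similar gene. Alternatives were other scaling factors (RLE, upper quartile), DESeq2 1.42.0, limma-voom with quality weights (limma 3.58.1), 2 other filters, a robust fit, a replicate block, a term for Y-linked reads and the removal of each library in turn. Added after seeing the data were the removal of 2 libraries together, the interaction with Y-linked reads, another gene length and the MEF2 motif. Results of some genes in these lists are not reported here.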

Additional observations from a re-analysis of the deposited data

Results flagged for a closer look

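Cebpb in stressed replicate 3 stood apart from its group: it held 695 CPM, and the next stressed library 542 CPM, a gap of 71.2% of the group's range. Over 18 groups of 5 libraries this was the 1 library so placed, and chance places about 1 in 20 groups so.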

How the results depend on the processing

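In each of 20 alternatives 0 of the 9 factors and 0 of their relatives were called, and 8 of the 9 factors kept the direction of their fold change in all 20. Klf2, at -0.005, had the opposite sign with limma-voom (0.039) and without some libraries (range -0.059 to 0.044). Over these alternatives the smallest adjusted p of any factor was 0.440, for Cebpa and Cebpb. Over all genes, 1 call became 18 with DESeq2, 2 with limma-voom, 10 without a low-count filter and 1 to 2 without single libraries (2 without non-stressed replicate 5). In the other lists 1 call became 3, 2, 4 and 1 to 2 under the same settings, with the classical monocyte genes Vcan and Mmp8 beside Chil3 in DESeq2; the cause was not tested. The fit with the replicate block gave 4 calls over all genes, 3 in the other lists (Chil3, Vcan and Mrc1, the last at -1.08 with adjusted p = 0.0124) and 0 factors. Samples with equal numbers deviated together for numbers 1, 2, 4 and 5 (r = 0.22, 0.23, 0.27 and 0.29 over 10849 genes) and not for 3 (r = -0.08). The non-stressed library most alike had the same number for stressed replicates 1, 4 and 5. It was number 1 for stressed replicate 2 and number 4 for stressed replicate 3. The numbers were not taken to pair the samples, although equal numbers were alike in Y-linked reads, and a pairing is not excluded. TMM-scaled totals and a pseudocount of 0.1 also left 0 pairs of factors past adjustment. Folds within the 95% intervals of the factors are compatible with these 5 libraries per group.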
